A study of Arabidopsis thaliana with 33 samples.

Results

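Midday was set against midnight in leaves of Arabidopsis thaliana, ecotype Col-0, grown at elevated CO2 with limiting nitrogen (N). The comparison used the 8 arrays whose labels name this combination, of 33 arrays in the series: 4 from leaves taken at midday and 4 from leaves taken at midnight. Both groups had grown at 750 ppm CO2, were watered with a nutrient solution holding 0.25 mM NH4NO3, and were sampled on day 35 as the youngest leaf that was fully expanded. The plants carried no transgene or mutation that the labels name. The remaining 25 arrays came from the same ecotype at 370 ppm CO2 or with 6 mM NH4NO3, also at midday and midnight. Chambers ran 10 h of light at 21 °C and 14 h of dark at 18 °C, so time of day, light and temperature cannot be told apart in any midday to midnight difference. The labels do not say whether the arrays of a group came from separate plants, or from how many, so p-values measure only the spread between samples.

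A leaf spends the day fixing CO2 with light energy and the night living on what it stored. In the light, chlorophyll-binding antenna proteins feed the photosystems, the Calvin-Benson cycle turns CO2 into sugars, and part of the carbon is laid down as starch in the chloroplast. In the dark, starch is broken down to maltose and glucose, sucrose leaves the cell through SWEET exporters, vacuolar stores are exchanged across the tonoplast, and mitochondria burn organic acids in the TCA cycle. Many of the genes for these steps are timed by the circadian clock, light and sugars together. Under N shortage a leaf recycles protein and keeps fewer of the N-rich proteins of photosynthesis, and high CO2 adds to the carbon supply.

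Each array was an Affymetrix ATH1 GeneChip hybridised with biotin-labelled RNA, and its deposited values are on a log2 scale with the median of every array at 0. A value of 3 therefore lies 3 log2 units above that array's median, so any shift that most transcripts had in common is removed. A probe set is a group of probes read together as 1 value, for 1 gene or for several. The main test was limma over all 12772 probe sets that are not Affymetrix controls. A probe set was called when its Benjamini-Hochberg adjusted p was under 0.05, and all adjusted p-values of single genes below are limma's. Values of arrays are given in the order of replicates 1 to 4, and differences are midday minus midnight with their standard error (SE, n = 4 arrays in each group). RNA came from whole leaves, so fewer cells of a type and less RNA per cell cannot be told apart.

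Controls added in the laboratory were set beside the leaf genes first. All 14 hybridisation control probe sets, for the bacterial and phage transcripts bioB, bioC, bioD and cre added after labelling, were higher at midday. They rose by 0.52 to 1.18 on the log2 scale (median 0.81), and the groups did not overlap in any of them. The mean of these controls was 2.79, 2.93, 2.75 and 2.84 on the midday arrays, against 1.75, 1.97, 2.16 and 2.11 on the midnight arrays. Of the 23 poly-A control probe sets, for the transcripts dap, lys, phe and thr added to the RNA before labelling, 9 lay above 0 and 14 below it (median -0.08, range -0.67 to 1.36). In both kinds, probe sets of the same transcript are repeated readings, not independent controls. In an exact two-sided permutation test of 4 arrays against 4, with 70 splits, the smallest p the design allows is 0.0286, and the 14 hybridisation controls and 2 poly-A controls reached it. Their adjusted p was 0.0661, so none of the 37 passed. At that smallest p a control could pass only if most of the 37 reached it, so this does not show that the controls were unchanged. Leaf probe sets were tested by limma, so the 2 outcomes are not alike. The largest control difference, 1.36 for a 5′ probe set of the poly-A control thr, came with a value of -0.01 on midday replicate 4, against -2.63 to -2.33 on the other midday arrays. All 17 Affymetrix probe sets for Arabidopsis control genes (actin, GAPDH, ubiquitin and 25S rRNA) were also higher at midday, by 0.35 to 1.096, with no overlap in 11.

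The controls therefore set a scale for sizes. The median absolute difference was 0.35 over the 12772 leaf probe sets, 0.81 over the hybridisation controls and 0.24 over the poly-A controls. A 2-fold difference was reached by 12.1% of leaf probe sets and by 2 of 37 control probe sets (5.41%). Differences larger than that of every control were found in 785 leaf probe sets, 6.15% of those tested: 480 were higher at midday, 305 were lower, and 767 of the 785 passed limma. When each array was centred on its hybridisation controls instead of its median, the median leaf difference moved to -0.80, and 323 probe sets were called higher against 7086 lower. Directions below are relative to the array median, and those of genes that rose by less than 0.83, the mean difference of the hybridisation controls, turn under that centring.

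**Figure D1:**
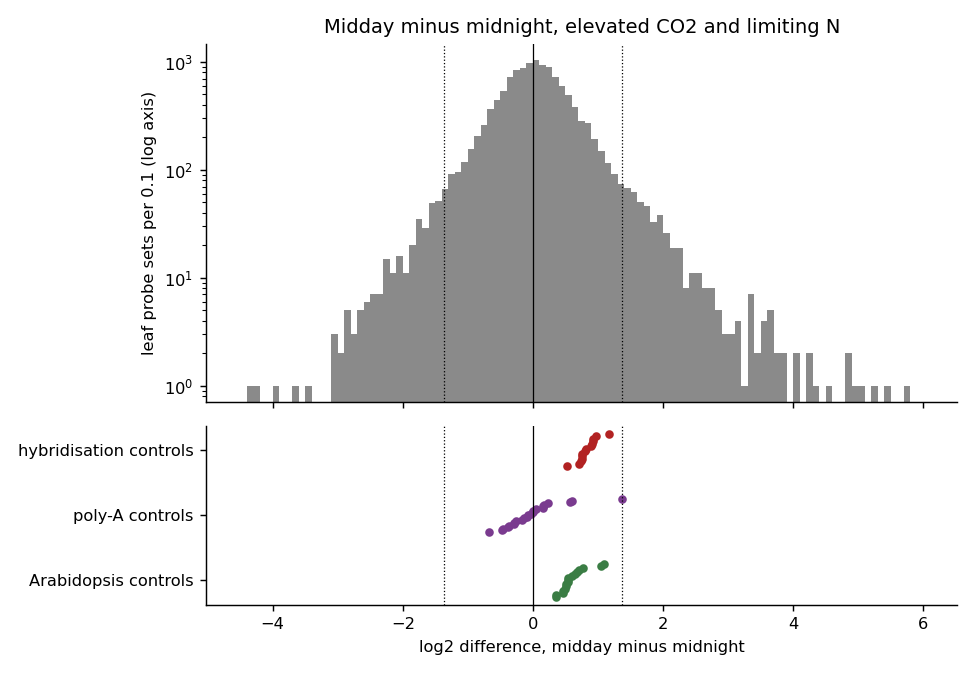
Top, number of leaf probe sets (log axis) in steps of 0.1 of the log2 difference, midday minus midnight. Bottom, the 14 hybridisation, 23 poly-A and 17 Arabidopsis control probe sets on the same axis, 1 point each, spread vertically for sight. The dotted lines mark the largest control difference, 1.36, on either side of 0: 785 leaf probe sets lie beyond them, and all hybridisation controls lie to the right of 0.

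By their correlations, arrays of the same group were alike apart from 1. Midnight replicate 1 correlated with the other midnight arrays at r = 0.909 to 0.945 over all leaf probe sets, while the best match of each of the other 3 was at 0.977 to 0.979. The midday arrays correlated at 0.946 to 0.970 with each other, and arrays of different times at 0.815 to 0.908. The first principal component, 58.8% of the variance, separated midday from midnight. The log2 ratio of 3′ to 5′ probe sets over 6 pairs of Arabidopsis controls, a sign of RNA integrity, was 1.88, 1.83, 1.75 and 1.46 at midday, against 1.72, 2.00, 1.96 and 1.99 at midnight. Midday replicate 4 was lowest and also stood apart on its poly-A control mean, 0.06, against -0.77 to -0.60 on the other midday arrays. Without midday replicate 4, 3667 probe sets were called. Without midnight replicate 1, 4015 probe sets were called, of which 3658 were among the 4481 called with it. In the other conditions, midnight replicate 4 at ambient CO2 and ample N stood apart, with a hybridisation control mean of 4.22, against 2.12 to 2.84 on the 4 others of its group, and a 3′ to 5′ ratio of 4.41, against 1.72 to 2.35. It is in no group compared here but enters the fit's estimate of spread, and without it 5042 probe sets were called, among them all 4481. A listed gene is called measured, here and below, when the annotation names it alone on a probe set. With 5602 probe sets not listed there and 272 naming several, other genes of a list may be on the array unnamed. Of 7 mesophyll marker genes 2 were measured, RCA and PRK, with values of 5.32 to 6.62 and 4.58 to 5.76 on the 8 arrays. Of 7 guard cell markers 2 were measured: AT1G22690 (-0.57 ± 0.26, adjusted p = 0.0801) and FMA (-0.04 ± 0.22, adjusted p = 0.913) did not pass. The lists of epidermis, phloem, xylem, root and floral organ markers had no member measured in this sense, nor did those of the circadian clock and aquaporins. Whether unnamed probe sets read these genes is not known here.

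Between midday and midnight 4481 probe sets were called, 35.1% of those tested. Of these, 2391 (18.7%) were higher and 2090 (16.4%) lower at midday. The rise or fall was at least 2-fold in 1489 of them (11.7%): 867 (6.79%) were higher and 622 (4.87%) lower. The 4 midday and 4 midnight values did not overlap in 3900 probe sets (30.5%). Poly-A control centring left 2377 calls, 1488 higher and 889 lower. The mean of the poly-A controls was -0.77, -0.77, -0.60 and 0.06 at midday, against -0.67, -0.56, -0.16 and -0.62 at midnight. Between the times it differed by only -0.02, and the median leaf difference was 0.05 under this centring, against 0.03 before. Sizes of differences thus hardly changed, and calls lost under it, here and below, reflect spread between arrays. Of the called probe sets 2338 name 1 gene, and the others, among them 9 of the 10 largest rises and 4 of the 10 largest falls, do not name 1 gene in the annotation used here.

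The largest rise among named genes was that of AT5G35970, which the annotation gives by its locus code only. It had 3.71, 3.87, 3.62 and 4.005 at midday, against -1.298, -0.54, -0.66 and -0.39 at midnight, a difference of 4.52 ± 0.20 or 23.0-fold (adjusted p = 1.86e-17). The next named by a symbol was CYP71B26, a cytochrome P450 of unsettled substrate, with 2.49, 2.46, 2.15 and 2.13 at midday, against -1.84, -1.76, -1.598 and -1.78 at midnight (4.05 ± 0.21, adjusted p = 2.12e-15). Every midday array lay far above every midnight array for both genes. That the groups do not overlap was a condition of this ranking, here and among the largest falls.

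IAGLU, which joins the growth hormone auxin to glucose, had 0.83, 0.74, 0.33 and 1.04 at midday, against -1.75, -2.94, -3.28 and -2.68 at midnight, 10.5-fold more at midday (3.398 ± 0.27, adjusted p = 2.3e-11). Midnight replicate 1 was the highest midnight array for this gene. The other 9 of the 12 largest rises were AT2G23840 (4.07), AT4G12980 (3.74), AT5G57345 (3.68), AT3G15310 (3.66), AT3G01060 (3.52), AT5G59130 (3.504), AT3G57020 (3.48), AT1G21500 (3.37) and AT1G18360 (3.34), all known here by code.

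Of the falls among named genes, AT3G59350 was the largest: -2.92, -2.02, -2.39 and -2.79 at midday, against 1.49, 1.13, 1.49 and 1.53 at midnight, a 15.3-fold lower level at midday (-3.94 ± 0.24, adjusted p = 7.22e-14). Its groups were far apart. LCR69, a small cysteine-rich peptide of the plant defensin family, had -0.28, -0.31, -0.84 and -0.19 at midday, against 1.94, 2.66, 2.32 and 2.31 at midnight (-2.71 ± 0.23, adjusted p = 1.11e-10). OTP81, an RNA-binding protein of the pentatricopeptide repeat family that edits organelle transcripts, had -3.65, -2.24, -3.33 and -6.43 at midday, against -1.23, -1.58, -0.86 and -1.17 at midnight, with midday replicate 4 far below the rest (-2.703 ± 0.47, adjusted p = 3.78e-05). Without that array its difference was -1.86.

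The other 9 of the 12 largest falls, again known by code, were AT1G22890 (-3.402), AT5G62900 (-3.02), AT1G47400 (-3.01), AT1G26665 (-2.95), AT3G47800 (-2.91), AT5G51570 (-2.895), AT3G19030 (-2.85), AT2G25730 (-2.64) and AT1G16520 (-2.59). All 24 of these genes stayed called in the same direction with either control centring, with quantile normalization, and with any single array of the 8 left out.

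Because codes say little, the largest changes among genes with a symbol were also taken, a choice made after their values were seen. BETA-VPE, a vacuolar processing protease, rose by 2.78 ± 0.36 (adjusted p = 3.28e-07), and TBL26, of a family that acetylates cell wall sugars, by 2.73 ± 0.53 (adjusted p = 0.00015). GAMMA-VPE, of the same protease family as BETA-VPE, did not pass (0.25 ± 0.32, adjusted p = 0.577). TRY, the MYB repressor that stops neighbouring cells from forming leaf hairs, had 0.12, -0.41, -0.31 and -0.64 at midday, against -3.48, -2.21, -2.13 and -3.09 at midnight (2.42 ± 0.26, adjusted p = 1.1e-08). AOR, a chloroplast reductase that detoxifies reactive carbonyls, rose by 2.43, and GH9C2, an endoglucanase of the cell wall, by 2.05.

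Among falls of genes with a symbol, PYE, a transcription factor that governs the response to iron shortage, had -1.48, -0.87, -0.85 and -1.25 at midday, against 0.82, 1.35, 1.06 and 1.26 at midnight (-2.24 ± 0.22, adjusted p = 3.06e-09). ATPMEPCRB, a pectin methylesterase, fell by 2.105, TBL45, of the same family as TBL26, by 1.97, DIM1A, a methylase of ribosomal RNA, by 1.85, the serine carboxypeptidase-like SCPL49 by 1.78, and HHP2, a membrane protein with several membrane-spanning helices, by 1.71. The 2 TBL genes thus went opposite ways.

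**Figure D2:**
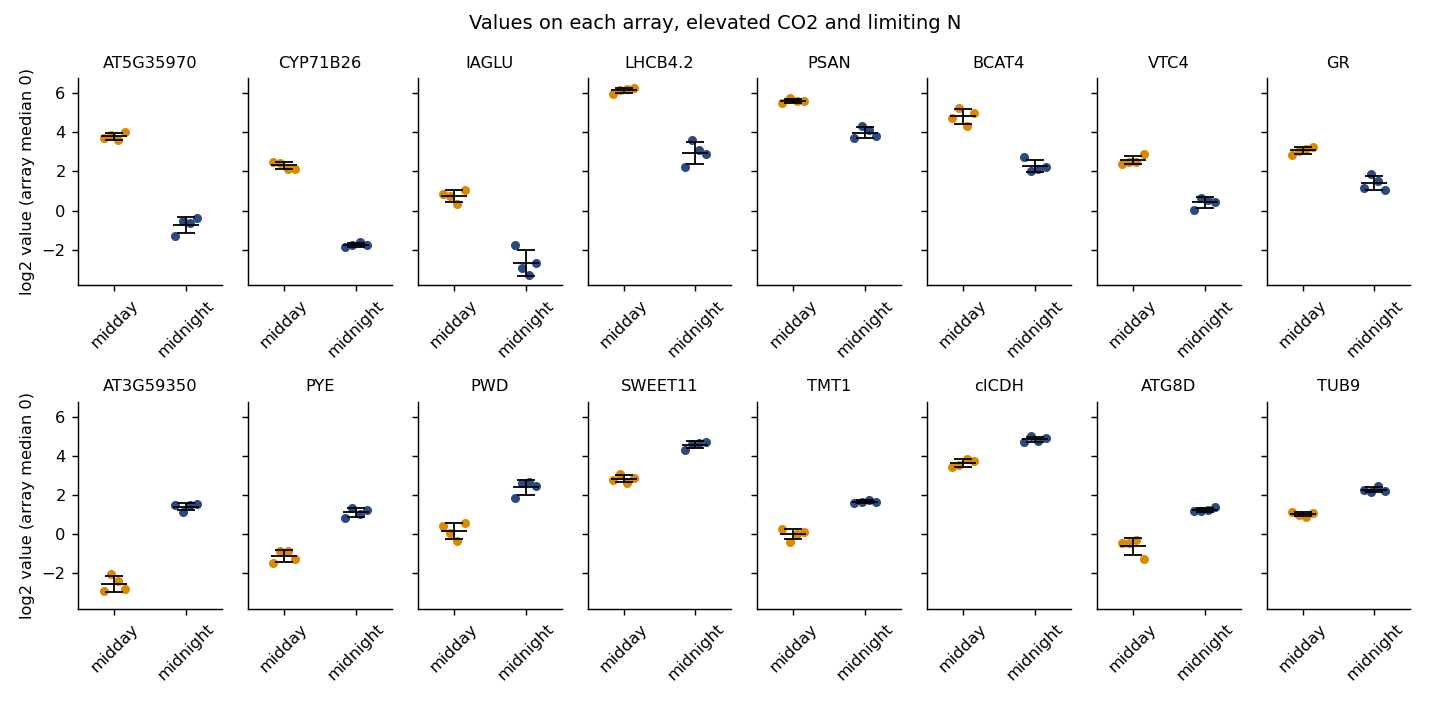
Log2 value on each of the 4 midday (left in each panel) and 4 midnight arrays (right) for 16 genes, with the mean and SD. The upper row holds genes higher at midday and the lower row genes lower at midday, and in none of the 16 do the groups overlap.

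Most measured genes of the photosynthetic light reactions were higher at midday relative to the array median. Of 57 genes on the list 8 were measured. Among these 7 rose and none fell, beside 18.7% and 16.4% of all probe sets, with a median difference of 1.11 against 0.03 over all probe sets. LHCB4.2, a minor antenna protein of photosystem II, had 5.96, 6.14, 6.22 and 6.26 at midday, against 2.21, 3.602, 3.102 and 2.91 at midnight, 9.13-fold more at midday (3.19 ± 0.24, adjusted p = 1.29e-11). PSAN, a lumenal subunit of photosystem I, had 5.48, 5.76, 5.58 and 5.59 at midday, against 3.69, 4.33, 4.12 and 3.83 at midnight (1.61 ± 0.13, adjusted p = 5.64e-11). All midday arrays lay above all midnight arrays for both genes, and midnight replicate 1 was the lowest array for each.

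The other photosystem II proteins PSBY, by 1.53 ± 0.16, and PSBW, by 1.199 ± 0.20, rose as well. So did the antenna protein LHCB4.1 (1.02), the photosystem I subunit PSAE-1 (0.85) and the gamma subunit of the chloroplast ATP synthase, ATPC1 (0.78). LHCB4.3, the third gene of the LHCB4 group, had 3.28, 3.34, 3.63 and 3.48 at midday, against 3.33, 3.69, 3.56 and 3.36 at midnight: the groups overlapped and no difference was detected (-0.05 ± 0.27, adjusted p = 0.901). The 3 LHCB4 genes are close relatives, and how far their probe sets cross-hybridise is not given in the sources used here. With hybridisation control centring LHCB4.2 and PSAN stayed higher, by 2.36 and 0.78, while PSBY, PSBW, LHCB4.1 and PSAE-1 no longer passed, at 0.70, 0.37, 0.19 and 0.02, and ATPC1 turned to -0.055. Quantile normalization took the list's median to 0.63 and left 5 of 8 called.

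In chlorophyll synthesis 4 of 8 measured genes rose and 1 fell (median 0.56), beside 18.7% higher and 16.4% lower of all probe sets. HEME1 and HEME2, both uroporphyrinogen decarboxylases of the porphyrin pathway, rose by 1.26 and 0.79. CHLM, a methyltransferase of the magnesium branch, rose by 0.94, and PORB, the light-dependent protochlorophyllide reductase, by 0.86. HEMA2, a glutamyl-tRNA reductase at the head of the pathway, went the other way, with -1.97, -1.75, -1.69 and -2.12 at midday, against -1.34, -0.92, -1.03 and -1.21 at midnight (-0.76 ± 0.19, adjusted p = 0.00261). Under hybridisation control centring none of the 8 was called higher and 3 were called lower, with HEME2 at -0.039.

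All 3 measured genes of the Calvin-Benson cycle, of 22 on the list, rose, beside 18.7% of all probe sets called higher. Each rose by less than 1 log2 unit. RCA, the activase that keeps Rubisco open, had 6.23, 6.62, 6.45 and 6.36 at midday, against 5.32, 5.63, 5.74 and 5.74 at midnight (0.81 ± 0.16, adjusted p = 0.000141). SBPASE, sedoheptulose bisphosphatase, rose by 0.83 and PRK, phosphoribulokinase, by 0.58. None of the 3 passed with hybridisation control centring, where RCA was at -0.022 and PRK at -0.25, and quantile normalization left 1 of 3. In photorespiration, which salvages the product of Rubisco's reaction with oxygen, 1 of 4 measured genes (25.0%) rose, beside 18.7% of all probe sets. It was HPR, the peroxisomal hydroxypyruvate reductase (0.94 ± 0.18, adjusted p = 0.00017). LYC, lycopene cyclase of carotenoid synthesis, rose by 0.79, and turned to -0.043 with hybridisation control centring.

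Proteins that assemble the photosystems or carry cyclic electron flow were mixed, with 6 of 18 higher and 2 lower (median 0.49), 44.4% called beside 35.1% of all probe sets. PGRL1B, of the antimycin-sensitive cyclic route, had 1.93, 1.67, 1.33 and 1.31 at midday, against 0.24, 0.68, 0.79 and 0.33 at midnight (1.05 ± 0.18, adjusted p = 2.32e-05). NdhS, the ferredoxin-binding subunit of the chloroplast NDH complex, rose by 0.95, CRR41, an NDH assembly factor, by 1.14, and PSB27, a photosystem II repair protein, by 1.08. CRR42, an NDH assembly factor, and LPA2, which helps to assemble photosystem II, ran against the list, at -0.59 and -0.59. The CRR42 call was lost without midnight replicate 2 (-0.47) and the LPA2 call without midday replicate 1 or 3 or midnight replicate 2, 3 or 4 (-0.56 to -0.51). Centring on hybridisation controls left none of the 18 called higher and 4 called lower, and poly-A control centring left 4 higher and none lower.

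Genes encoded in the chloroplast itself leaned upward with few calls. Of 20 photosystem genes 19 lay above 0 and 4 were called higher, a 20.0% share near the 18.7% of all probe sets. Of 21 genes for the NDH complex, cytochrome b6f and ATP synthase 19 lay above 0 and 5 were called, and of 19 for the plastid RNA polymerase and ribosomal proteins 18 lay above 0 and 2 were called. Of all probe sets, 52.5% lay above 0. No gene of the 3 lists was called lower, while with quantile normalization 4 were called higher and 2 lower.

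psbD, for the D2 protein of the photosystem II core, had 3.03, 1.796, 3.31 and 4.28 at midday, against -0.01, 1.06, 2.16 and 1.07 at midnight (2.04 ± 0.49, adjusted p = 0.00161). Its groups overlapped, and it ranged over more than 2 units in each group. psbC, for an inner antenna protein, rose by 1.04, and psbZ, for a small photosystem II subunit, by 1.06. In the other 2 lists the smallest p-values were those of ndhA, for an NDH subunit (0.83 ± 0.19, adjusted p = 0.00103), and rpl32, for a ribosomal protein (0.85 ± 0.26, adjusted p = 0.0111). psbA, for the D1 protein, had 3.75, 3.43, 3.65 and 3.96 at midday, against 3.32, 3.77, 4.299 and 4.03 at midnight, with no difference detected (-0.16 ± 0.30, adjusted p = 0.71). The labelling kit named in the labels primes on poly-A tails, which stable plastid transcripts generally lack. Under hybridisation control centring the medians of the 3 lists turned to -0.36, -0.28 and -0.34, with ndhA at -0.0025.

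Both measured genes of starch synthesis rose, and 1 of 3 measured genes of starch breakdown fell, beside 18.7% of all probe sets higher and 16.4% lower. These lists hold 16 and 22 genes. APL3, a large subunit of ADP-glucose pyrophosphorylase, had 2.02, 1.06, 0.97 and 1.07 at midday, against -0.01, -0.44, 0.24 and -0.59 at midnight (1.48 ± 0.25, adjusted p = 2.66e-05), and SBE2.2, a branching enzyme, had 2.88, 2.41, 2.27 and 2.63 at midday, against 0.92, 1.43, 1.93 and 1.38 at midnight (1.13 ± 0.20, adjusted p = 5.89e-05). No array of one time crossed those of the other. PWD, the phosphoglucan water dikinase that opens the granule for degradation, was lower at midday, with 0.41, 0.08, -0.33 and 0.60 at midday, against 1.86, 2.605, 2.65 and 2.48 at midnight, 4.63-fold (-2.21 ± 0.21, adjusted p = 9.25e-10). DPE1, the plastid disproportionating enzyme (-0.36 ± 0.25), and the amylase AMY1 (-0.41 ± 0.46) did not pass. APL3 and SBE2.2 no longer passed with hybridisation control centring, at 0.65 and 0.30, and PWD was at -3.04.

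Sugar carriers split within families. SWEET11, a plasma membrane exporter that loads sucrose towards the phloem, had 2.77, 3.08, 2.63 and 2.86 at midday, against 4.31, 4.63, 4.67 and 4.71 at midnight, 3.34-fold less at midday (-1.74 ± 0.18, adjusted p = 4.21e-09). SWEET13, of the same sucrose-exporting clade, had 1.395, 0.41, -1.27 and -0.69 at midday, against -2.96, -2.27, -1.35 and -1.35 at midnight, 3.85-fold more at midday (1.94 ± 0.41, adjusted p = 0.000424). Its values spread over more than 2 units at midday, and the gap between the groups was narrow. SWEET17, a fructose carrier of the vacuole membrane, rose by 1.59 ± 0.31 (adjusted p = 0.000208). The other 3 measured SWEET genes did not pass.

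The same split appeared in the tonoplast monosaccharide transporters, which fill the vacuole with sugar. TMT1 had 0.25, -0.38, 0.04 and 0.13 at midday, against 1.58, 1.66, 1.77 and 1.66 at midnight (-1.66 ± 0.17, adjusted p = 5.74e-09), while TMT2 had 0.05, -0.23, -0.97 and -0.33 at midday, against -2.46, -1.33, -1.01 and -1.33 at midnight (1.16 ± 0.24, adjusted p = 0.000288). Neither gene's groups overlapped. ATSPS4F, a sucrose phosphate synthase, was lower by 0.94 at midday (adjusted p = 0.0117), and AT2G35840, placed on the sucrose list by its code, was higher by 0.49 (adjusted p = 0.0183). The call for ATSPS4F was lost without midday replicate 3 (-0.71), and that for AT2G35840 without midday replicate 2 (0.43), midday replicate 4 (0.45) or midnight replicate 1 (0.34). SWEET13 stayed called with hybridisation control centring (1.11), SWEET17 and TMT2 did not (0.76 and 0.33), and AT2G35840 turned to -0.34.

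In the TCA cycle and pyruvate dehydrogenase 7 of 17 measured genes were lower at midday and none was higher (median -0.44), beside 16.4% of all probe sets lower. With poly-A control centring 4 of the 17 were called lower. cICDH, the cytosolic isocitrate dehydrogenase that can supply 2-oxoglutarate for N assimilation, had 3.43, 3.55, 3.86 and 3.75 at midday, against 4.72, 5.01, 4.77 and 4.901 at midnight (-1.203 ± 0.18, adjusted p = 6.59e-06). IDH-V, a catalytic subunit of the mitochondrial NAD-dependent isocitrate dehydrogenase, had 1.92, 2.06, 2.27 and 2.14 at midday, against 3.05, 2.92, 2.93 and 3.005 at midnight (-0.88 ± 0.10, adjusted p = 4.64e-08). Both were lower in every midday array. Of members known by code, AT5G65750 fell by 0.99, AT5G08300 by 0.88 and AT3G55410 by 0.56. Midnight replicate 1 was far above the other midnight arrays for AT3G55410, whose difference was -0.39 without it.

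The mitochondrial respiratory chain and ATP synthase showed no such tilt. Of 18 measured genes 1 was higher and 1 lower (median -0.03), or 11.1% called beside 35.1% of all probe sets. They were AT3G27240 (0.75 ± 0.18, turned to -0.078 with hybridisation control centring) and AT5G25450 (-1.33 ± 0.52). The call for AT5G25450 was lost without midday replicate 1 (-1.26), midday replicate 4 (-1.03) or midnight replicate 1 (-0.57).

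The 5 measured genes of the alternative respiration list, which also holds cytochrome c, went both ways: 2 were higher and 3 lower, or 2 and none with poly-A control centring. NDC1, a type II NAD(P)H dehydrogenase also found in chloroplasts, had 0.81, 0.91, 0.42 and 1.28 at midday, against -0.24, -0.07, 0.11 and -0.18 at midnight (0.95 ± 0.17, adjusted p = 5.92e-05). Of the external dehydrogenases, NDB1 was at -0.55 (adjusted p = 0.0181) and NDB2 at -0.81 (adjusted p = 0.0435). The 2 cytochrome c genes differed in direction: CYTC-1 fell by 0.71 ± 0.16 and CYTC-2 rose by 0.90 ± 0.21. The NDB1 call was lost without midday replicate 2 (-0.42), midnight replicate 2 (-0.49) or midnight replicate 3 (-0.46). The NDB2 call was lost without midday replicate 1 or 4 or midnight replicate 1, 2 or 4 (-0.86 to -0.43).

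Of the genes that mark low sugar, 2 of 7 were higher and 2 lower (median 0.34), beside 18.7% and 16.4% of all probe sets, and none was called with poly-A control centring. MCCA, a subunit of methylcrotonyl-CoA carboxylase in leucine breakdown, rose by 0.60, and IVD, isovaleryl-CoA dehydrogenase of the same pathway, by 0.42. AKINBETA1, a regulatory subunit of the SnRK1 energy kinase, had -0.94, -0.14, 0.18 and -0.63 at midday, against 0.37, 0.45, 0.26 and 0.44 at midnight (-0.76 ± 0.25, adjusted p = 0.0173), and AT3G15450 was at -0.75 (adjusted p = 0.0467). Calls of AKINBETA1 were lost without midday replicate 1 (-0.58) or midday replicate 4 (-0.68). Those of IVD were lost without midday or midnight replicate 1 or 2 (0.35 to 0.39), and those of AT3G15450 without midday replicate 1 or 4 or midnight replicate 2, 3 or 4 (-0.80 to -0.52). With hybridisation control centring MCCA turned to -0.23 and IVD to -0.41.

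For N itself the table names few genes. AT1G25550, on the N list by its code, had -1.29, 0.20, 0.35 and 0.03 at midday, against 1.72, 2.04, 1.95 and 1.78 at midnight (-2.05 ± 0.23, adjusted p = 2.06e-08), with every midday array below every midnight array. AT1G68670, from the same list, had 0.43, 1.397, 0.89 and 1.59 at midday, against 0.31, 0.68, 0.97 and 0.82 at midnight and did not pass (0.38 ± 0.21, adjusted p = 0.159). Its direction turned to -0.45 with hybridisation control centring, and without midday replicate 1 it passed, at 0.60.

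The few glucosinolate genes measured rose together. These sulfur compounds of the cabbage order deter herbivores. All 4 measured genes for making them, of 30 on the list, were higher at midday (median 1.97), beside 18.7% of all probe sets. BCAT4, the aminotransferase that starts methionine side-chain elongation, had 4.74, 5.23, 4.31 and 4.98 at midday, against 2.75, 2.05, 2.12 and 2.21 at midnight (2.53 ± 0.31, adjusted p = 1.25e-07). GSTU20, a glutathione transferase tied to the core pathway, had 4.57, 4.99, 4.63 and 4.71 at midday, against 2.602, 2.99, 2.87 and 2.03 at midnight (2.103 ± 0.23, adjusted p = 1.74e-08). AT2G31790, listed by its code, rose by 1.84, and UGT74B1, the glucosyltransferase of the core structure, by 1.02. In none of the 4 did the groups overlap, beside 30.5% of all probe sets without overlap. With hybridisation control centring 3 of 4 stayed called, and UGT74B1 was at 0.19.

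Family 1 glucosyltransferases, which attach sugars to hormones and phenolic compounds, mostly rose: 12 of 21 were higher and 2 lower (median 0.66), beside 18.7% and 16.4% of all probe sets, and 9 and none with poly-A control centring. UGT88A1 had 3.74, 3.81, 3.62 and 3.81 at midday, against 1.55, 1.97, 1.96 and 1.79 at midnight (1.93 ± 0.13, adjusted p = 1.02e-12), and UGT84A3, which makes sinapoylglucose and related esters, had 0.31, 0.06, -0.56 and -0.14 at midday, against -2.01, -2.46, -1.87 and -2.15 at midnight (2.04 ± 0.24, adjusted p = 4.98e-08). UGT72E1, which glucosylates coniferyl aldehyde, rose by 1.53. The flavonol glycosyltransferases UGT78D1 and UGT78D2 rose by 1.22 and 0.67.

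Against the family ran UGT71C5, which glucosylates abscisic acid, with -0.02, -0.57, -0.57 and -0.12 at midday, against 0.67, 0.22, 0.36 and 0.41 at midnight (-0.73 ± 0.17, adjusted p = 0.000906), and UGT87A2, with 0.25, 1.43, 2.04 and 0.55 at midday, against 3.33, 1.82, 1.17 and 2.43 at midnight (-1.12 ± 0.37, adjusted p = 0.017). The call for UGT87A2 was lost without midday replicate 1 (-0.85), midday replicate 4 (-0.95) or midnight replicate 1 (-0.74). Of the 21, 2 were called higher and 7 lower with hybridisation control centring, and UGT78D2 turned to -0.16. In the CYP71B group of cytochromes P450, to which CYP71B26 belongs, 5 of 10 rose and none fell, beside 18.7% and 16.4% of all probe sets. With poly-A control centring 3 were called. The next smallest p was that of CYP71B5 (0.84 ± 0.19, adjusted p = 0.00104).

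Redox enzymes leaned upward, with 4 of 7 higher (median 0.47), beside 18.7% of all probe sets. Without midnight replicate 1, and with poly-A control centring, 2 were called, and with quantile normalization 2 were higher and 1 lower. GR, glutathione reductase, had 2.86, 3.06, 3.16 and 3.23 at midday, against 1.15, 1.87, 1.51 and 1.06 at midnight (1.68 ± 0.20, adjusted p = 1.08e-07). SAPX, the stromal ascorbate peroxidase that removes hydrogen peroxide in the chloroplast, had 1.22, 1.77, 1.53 and 1.78 at midday, against 0.50, 0.05, 0.45 and 0.41 at midnight (1.22 ± 0.26, adjusted p = 0.000436), while its thylakoid partner TAPX rose by 0.47 and AT3G11630 by 0.47. GR stayed called with hybridisation control centring (0.85), SAPX did not (0.39), and TAPX and AT3G11630 turned to -0.36 and -0.36. The TAPX call was lost without midday replicate 2 or 4 or midnight replicate 1 or 4 (0.35 to 0.40) and that of AT3G11630 without midnight replicate 1 (0.40).

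Related genes were looked at after their values were seen. VTC4, a phosphatase that makes galactose for vitamin C, had 2.41, 2.51, 2.498 and 2.88 at midday, against 0.04, 0.67, 0.54 and 0.45 at midnight (2.15 ± 0.21, adjusted p = 2e-09). MSRB5 and MSRB6, methionine sulfoxide reductases that repair oxidised protein, rose by 1.897 and 1.68, while MSRA5 and MSRB3 did not pass. GME, an epimerase upstream of VTC4, was at -0.42 (adjusted p = 0.0185), lost without midday replicate 3 or midnight replicate 3 or 4 (-0.38 to -0.31). Of 7 glutathione transferases 3 rose, GSTU20 (above), GSTU23 (1.35) and GSTU16 (1.35), and none fell, beside 18.7% and 16.4% of all probe sets. This group was picked from these values, so the share is no test of it.

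Of 6 expansins, which loosen the wall for growth, 3 rose and none fell, beside 18.7% and 16.4% of all probe sets. EXPB3 had 0.87, -0.72, -0.49 and 0.62 at midday, against -1.91, -1.83, -1.32 and -2.09 at midnight (1.86 ± 0.27, adjusted p = 2.4e-06), EXPA8 rose by 1.55 and EXPA15 by 1.08. Midnight replicate 1 was at -1.06 for EXPA8, against 0.95 to 1.17 on the other midnight arrays, and the difference without it was 1.01. EXPA4 had 1.89, 1.62, 1.29 and 1.899 at midday, against 0.29, 0.59, 0.69 and 0.53 at midnight: its groups did not overlap, but it did not pass limma (1.15 ± 0.80, adjusted p = 0.278). Its SD was 0.29 at midday and 0.17 at midnight, so the large SE comes from arrays of the other conditions in the fit.

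Of 7 tubulins 3 fell and 1 rose, beside 16.4% and 18.7% of all probe sets. With poly-A control centring 1 was called each way. Tubulin genes, like those of histones, are near copies of each other, so their probe sets may share signal. TUB9 had 1.12, 1.01, 0.91 and 1.11 at midday, against 2.27, 2.17, 2.45 and 2.22 at midnight (-1.24 ± 0.12, adjusted p = 3.31e-09), and TUB6 had 2.77, 2.46, 2.197 and 2.72 at midday, against 1.27, 1.89, 2.16 and 1.92 at midnight (0.73 ± 0.15, adjusted p = 0.000336). TUB7 was at -0.51 and TUA1 at -0.43, and neither call held without each array in turn. That of TUB7 was lost without midday replicate 1, 2 or 3 or midnight replicate 3 or 4 (-0.52 to -0.46), and that of TUA1 without midday replicate 1 or 3 or midnight replicate 1, 2 or 4 (-0.44 to -0.27). TUB6 turned to -0.10 with hybridisation control centring. The 2 measured gibberellin receptors, picked after their values were seen, were opposite. GID1A had -1.21, -0.45, -0.97 and -1.52 at midday, against 0.17, 0.48, 0.40 and 0.25 at midnight (-1.36 ± 0.26, adjusted p = 0.000116), and GID1C had -1.86, -1.14, -1.73 and -1.99 at midday, against -2.27, -2.71, -2.67 and -3.14 at midnight (1.01 ± 0.23, adjusted p = 0.000819).

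Autophagy recycles cell contents, and ATG8 proteins coat its vesicles. Of 9 ATG8 genes 3 were lower at midday and none higher (median -0.25), 33.3% called beside 35.1% of all probe sets. With poly-A control centring 1 was called, and likewise 1 without midnight replicate 1. ATG8D had -0.44, -0.44, -0.31 and -1.27 at midday, against 1.19, 1.19, 1.26 and 1.399 at midnight (-1.88 ± 0.20, adjusted p = 8.69e-09). ATG8E was at -0.80 (adjusted p = 0.0267) and ATG8B at -0.54 (adjusted p = 0.047). The ATG8E call was lost without midday replicate 1 or 4 or midnight replicate 1 or 2 (-0.69 to -0.64), and the ATG8B call was lost whichever of the 8 arrays was left out (-0.59 to -0.45).

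Histone genes, chosen after their values were seen, were lower in 4 of 6 and higher in none, beside 16.4% of all probe sets lower. As the choice came from these values, that share is a description and no test. With poly-A control centring, or without midnight replicate 1, 3 were called lower. HTB2, a histone H2B, had 0.17, 0.05, 0.40 and 0.05 at midday, against 1.89, 1.79, 1.55 and 1.66 at midnight (-1.56 ± 0.16, adjusted p = 9.16e-09). HON4, of the linker histone group, had 0.63, 0.52, 0.65 and 0.83 at midday, against 1.39, 1.54, 1.57 and 1.56 at midnight (-0.86 ± 0.12, adjusted p = 1.24e-06). HTB11 was at -0.35 and HIS1-3, a linker histone induced by drought, at -1.52. The HTB11 call held only without midday replicate 1 or midnight replicate 3 among the 8 arrays, and was lost without each of the other 6 (-0.35 to -0.31). The HIS1-3 call was lost without midday replicate 4 (-1.28), midnight replicate 3 (-1.29) or midnight replicate 4 (-1.27). Of the iron-deficiency bHLH factors, picked likewise, PYE, bHLH104 (-0.64) and bHLH121 (-0.68) were lower and bHLH34 was higher (0.81), with 1 called in each direction under poly-A control centring. The bHLH121 call was lost without midnight replicate 4 (-0.57), and bHLH34 turned to -0.024 with hybridisation control centring. HYH, the only light-signalling gene measured, did not pass (0.10 ± 0.28, adjusted p = 0.811).

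Of 4 genes of ATP citrate lyase, which makes cytosolic acetyl-CoA, 2 were called: ACLA-2 was lower (-0.85 ± 0.22, adjusted p = 0.00249) and ACLB-1 higher (0.44 ± 0.16, adjusted p = 0.0295). The ACLB-1 call was lost without midday replicate 1, 2 or 4 or midnight replicate 1 or 4 (0.38 to 0.44), and it turned to -0.39 with hybridisation control centring. Of 13 genes of endoplasmic reticulum quality control 1 was higher and 2 lower, 23.1% called beside 35.1% of all probe sets, or 1 and none with poly-A control centring, and 2 close relatives were opposite: ATERDJ2B rose by 1.06 and ATERDJ2A fell by 0.65.

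Of 10 ESCRT subunits, which sort membrane proteins for the vacuole, VPS20.1 (-0.79) and VPS2.1 (-0.64) fell and none rose, 20.0% called beside 35.1% of all probe sets. Poly-A control centring left no call. Of 11 ubiquitin-specific proteases UBP22 (-0.60) and UBP23 (-0.48) were lower and none was higher, 18.2% beside 16.4% of all probe sets lower. Neither was called with poly-A control centring or without midnight replicate 1. The UBP22 call was lost without midday or midnight replicate 1 (-0.53 to -0.44), and the UBP23 call without those arrays or midday replicate 2 (-0.43 to -0.34). Of 6 RALF signalling peptides, picked after their values were seen, 1 was higher and 2 lower, beside 18.7% and 16.4% of all probe sets, with RALFL33 at -1.66 and RALFL34 at 0.90. Because of that choice the RALF share is no test. None of 4 cold-responsive genes (range -0.87 to -0.48) and neither of 2 chaperones (0.20 and 0.34) passed.

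**Figure D3:**
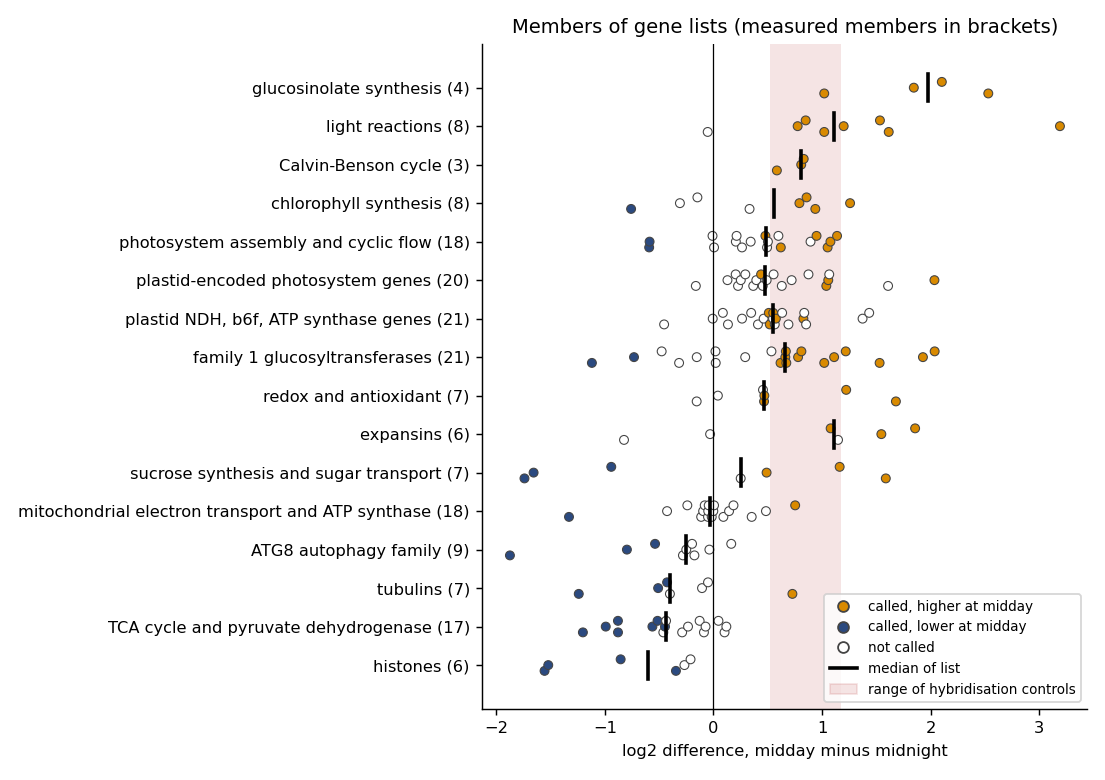
Log2 difference, midday minus midnight, of every measured member of 16 gene lists. Filled points passed limma (orange higher, blue lower at midday), open points did not, black bars are list medians, and the shaded band is the range of the hybridisation controls, 0.52 to 1.18. The glucosinolate list has the highest median of those drawn, 1.97. The histones, a list chosen after its values were seen, have the lowest, -0.60.

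The midday to midnight difference was then set beside those of the other 3 growth conditions, which share no arrays with it. The hybridisation control mean was also higher at midday at ambient CO2 and limiting N (2.76 to 3.01, against 1.96 to 2.33). So it was at elevated CO2 and ample N (2.54 to 2.93, against 2.01 to 2.46). At ambient CO2 and ample N the times overlapped (2.78 to 3.19, against 2.12 to 4.22). How far this shift of the arrays adds to the shared differences was not tested. Across the 12772 probe sets the differences correlated at r = 0.908 with those at elevated CO2 and ample N, 0.891 with ambient CO2 and limiting N, and 0.877 with ambient CO2 and ample N, and 83.1%, 82.1% and 81.2% of them had the same sign. Probe sets of 1 array are not independent of each other, so these are descriptions. Calls numbered 4481 here, 4259 at elevated CO2 and ample N, 4533 at ambient CO2 and limiting N and 5185 at ambient CO2 and ample N. The 3200 calls shared with elevated CO2 and ample N were 71.4% of those here and 75.1% of those there, and all had the same direction. With ambient CO2 and limiting N 3270 were shared, 73.0% of those here and 72.1% of those there, 3268 in the same direction. With ambient CO2 and ample N 3403 were shared, 75.9% of those here and 65.6% of those there, 3399 in the same direction. Without the far midnight array of that condition, named above, the correlation was 0.891, 82.6% had the same sign, and 3811 of its 5414 calls were shared with the 5042 here.

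Of the 24 largest named changes, 24 were called in the same direction at ambient CO2 and limiting N and 23 at each of the other 2 conditions (also 23 at ambient CO2 and ample N without its far midnight array). OTP81 was at -2.703 here, against -0.92, -1.52 and -1.07 at elevated CO2 and ample N, ambient CO2 and limiting N, and ambient CO2 and ample N. CYP71B26 was 4.05 here, against 4.16, 4.19 and 3.87 in the same order.

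Whether the difference itself depended on CO2 was tested as an interaction within limiting N. No probe set passed limma (smallest adjusted p = 0.831), and 616 had an unadjusted p under 0.05. The median SE of this interaction was 0.28. The 4 named genes with the smallest p were HON4, AT1G19680, AT2G39920 and AT3G56410. HON4 was at -0.86 here, against -1.59 at ambient CO2, an interaction of 0.73 ± 0.17. AT1G19680 was at -0.85 here, against -1.88 (1.02 ± 0.25). AT2G39920 was at -0.33 here, against -1.64 at ambient CO2, and AT3G56410 at -0.19 here, against -1.14 at ambient CO2.

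The interaction with N, within elevated CO2, also had no probe set past limma's threshold (smallest adjusted p = 0.177), and 510 had an unadjusted p under 0.05. The smallest p among named genes was that of AT5G14120, known by code. It had 2.004, 3.01, 2.65 and 3.07 at midday, against 1.91, 3.104, 2.56 and 2.397 at midnight at limiting N, a difference of 0.19, against -1.19 at ample N, an interaction of 1.38 ± 0.29 (adjusted p = 0.177). AT1G03820 was at -0.31 here, against 0.91 at ample N (adjusted p of the interaction 0.386), and AT5G57000 at -0.20, against -1.25 (adjusted p of the interaction 0.486). PSAN was higher at midday by 1.61 here, against 0.86 at ample N (interaction 0.75 ± 0.19, adjusted p = 0.486).

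SAPX, looked at after its values were seen, was at 1.22 here and 1.29 at ambient CO2 and limiting N, against 0.13 at elevated CO2 and ample N and -0.17 at ambient CO2 and ample N. Its interaction with N at elevated CO2, 1.09 ± 0.37, had an unadjusted p of 0.00627 and did not pass limma after adjustment over all probe sets. Against the mean of the other 3 conditions 1 probe set passed limma, 0.00783% of those tested. It has no gene name here, and without the far midnight array 2 passed, neither named. Of all probe sets, 756 had an unadjusted p under 0.05.

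**Figure D4:**
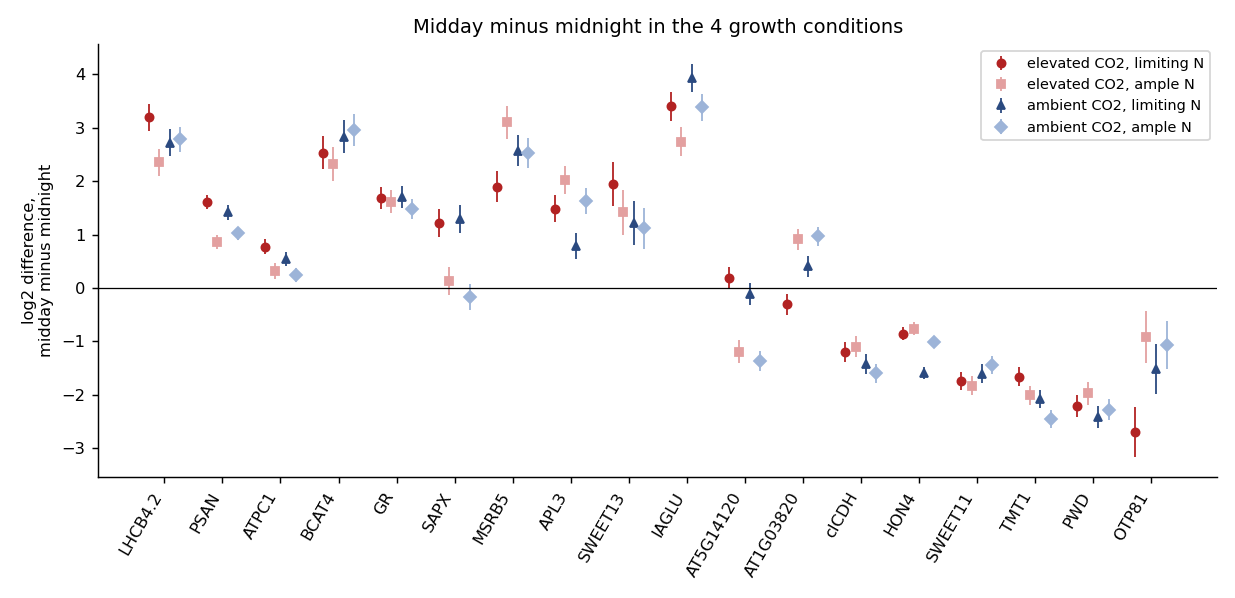
Log2 difference, midday minus midnight, with SE, of 18 genes in the 4 growth conditions, each condition with its own colour and marker. Most genes sit on the same side of 0 in all 4; AT5G14120, AT1G03820 and SAPX have a point on either side, and none of their interactions passed.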

How the data were processed

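RNA from 33 leaf samples had been hybridised to Affymetrix ATH1 arrays, 8 of which are compared here. The authors deposited log2 values, 1 per probe set and array; how probes were summarised and background removed is not stated in these sources. Each deposited column had a median of 0, with values from -8.13 to 7.44. The precision is limited by the number of arrays. Of 12826 probe sets 54 were Affymetrix controls and 12772 were tested; 6898 name 1 gene (6848 genes) in the platform's annotation, 272 name several and 5602 are not listed. Symbols were updated through a RefSeq gene table. Group means of all 8 groups were fitted in limma 3.58.1 (R 4.3.3), tables were handled in Python 3.11.15, and p-values were adjusted over all 12772 by Benjamini-Hochberg. The 37 spike-in control probe sets were tested by exact permutation. Limma was tested on simulated data, with 100 probe sets changed by each of 2 sizes. It recovered 15 of 100 changes of 0.5 log2 units and 77 of 100 changes of 1, with 6 false calls. Far fewer probe sets were changed there than were called here, so recovery here may differ. A gene that did not pass may still differ by such sizes. No arrays were identical. The labels state no pairing by replicate number. Deviations of same-numbered arrays correlated at -0.46 to -0.01, but with 4 arrays in each group this cannot exclude a batch that they share.

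Genes were named by rule: the 12 largest rises and falls among called genes whose groups do not overlap, up to 5 members of a list by p, members against their list, and the 4 smallest p-values of each interaction. Further genes and 8 lists were taken after their values were seen, as stated beside them. The comparison and all lists were chosen with earlier results of these data known. Alternatives were array weights, a trended robust fit, centring on either kind of control (poly-A centring and leaving out 1 far array of another condition were added after seeing the data), quantile normalization, a fit of the compared groups alone, a replicate block, removal of the dimmest 30% of probe sets, a 2-fold minimum and leaving out each array. Promoter motifs and sequences were not analysed here.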

Additional observations from a re-analysis of the deposited data

Results flagged for a closer look

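Single arrays far from the 3 others of their group were looked for in the 156 genes followed, 312 groups of 4. A gap to the nearest array above Dixon's critical value was found in 18, and chance gives about 1 in 20. Midnight replicate 1 was the far array in 7: it was low for CHLM (2.63), EXPA8 (-1.06), HON4 (1.39), LPA2 (1.23) and LYC (0.65), and high for AT3G55410 (2.13) and VPS20.1 (0.47). Midday replicate 3 was far for AT1G03820 (-1.94), AT4G12980 (1.598), AT5G08300 (2.69) and DIM1A (-1.05), midday replicate 4 for ATG8B (-1.301) and ATG8D (-1.27), and midday replicate 1 for APL3 (2.02) and AT3G15450 (-1.75). Midnight replicate 3 was far for AT5G51570 (1.51) and UGT74B1 (1.82), and midnight replicate 2 for AT3G59350 (1.13).

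One probe set that the annotation does not name differed in its midday to midnight difference from the mean of the other 3 conditions, by 1.31 ± 0.23 (SE; limma, adjusted p = 0.0442). Its difference was -0.27 here (adjusted p = 0.310), against -1.69 at elevated CO2 and ample N, -1.12 at ambient CO2 and limiting N, and -1.92 at ambient CO2 and ample N.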

How the results depend on the processing

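The 4481 calls became 7409 with hybridisation control centring (323 higher, 7086 lower), 2377 with poly-A control centring (1488 higher, 889 lower), 2731 with the replicate block (1541 higher, 1190 lower) and 1489 with a 2-fold minimum. The labels state no pairing by replicate number, so the main fit holds no such block, but a batch shared by same-numbered arrays is not excluded. Quantile normalization gave 4539, array weights 5261, the compared groups alone 3761, the trended robust fit 4476, and leaving out 1 array 3667 to 4440 for the 8 arrays compared and 5042 without midnight replicate 4 of ambient CO2 and ample N, a choice made after seeing the data. The N by time interaction gave 2 calls with array weights and 0 to 1 without single arrays. The contrast with the mean of the other 3 conditions, 1 call, gave 2 with array weights, 0 with either control centring or quantile normalization, and 0 to 3 without single arrays. The median absolute difference of the 37 controls, 0.48, was 0.81 for hybridisation and 0.24 for poly-A controls alone.

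With hybridisation control centring these genes turned negative: ATPC1 (-0.055), HEME2 (-0.039), RCA (-0.022), PRK (-0.25), AT3G27240 (-0.078), AT1G68670 (-0.45), MCCA (-0.23), TUB6 (-0.10), AT5G14120 (-0.64), HYH (-0.73), UGT78D2 (-0.16), LYC (-0.043), bHLH34 (-0.024), AT2G35840 (-0.34), TAPX (-0.36), AT3G11630 (-0.36), IVD (-0.41), ndhA (-0.0025) and ACLB-1 (-0.39). This shift follows from subtracting the controls' own difference. AT5G14120 was at -0.031 with array weights. Without single arrays AMY1 ranged from -0.66 to 0.019, FMA from -0.13 to 0.056, AT5G14120 from -0.0049 to 0.42, LHCB4.3 from -0.12 to 0.014 and HYH from -0.19 to 0.39, none of them called. Of 142 genes followed and called, 118 stayed called without any single array and 24 did not.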
